A study of Teleogryllus oceanicus with 18 samples.

Results

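Male *Teleogryllus oceanicus* field crickets from Kauai and from Mangaia were compared 4 days after they had been infested by a parasitoid, the fly *Ormia ochracea*. The comparison rests on 6 of the 18 RNA-seq libraries of the series, 3 from each population, chosen by their labels for population and time since infestation. Each library pooled RNA from the bodies of 2 crickets, so each group stands for 6 males. The other libraries, 3 for each population of uninfested controls and of crickets at day 7, entered the same model and serve here as background. The study weighed its controls again at day 7 and describes none matched to day 4. Time since handling and infestation therefore cannot be told apart where day 4 is set against controls.

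All 12 day 4 crickets were sexually mature adults that had been reared in the laboratory without flies, and each had received 2 first instar larvae by hand at the junction of thorax and abdomen. The larvae came from flies caught in California and were dissected out of the crickets before RNA was extracted. Head, digestive tract, pronotum, wings and legs were also removed. Kauai pools joined 1 flatwing male, whose wings make no song, with 1 normal-wing male. Mangaia pools held normal-wing males, with 0 flatwing males. The Kauai colony had been restocked with offspring of wild females, which its counterpart from Mangaia had not. Population, wing morph and colony history therefore cannot be told apart in any difference below, and pools that share a colony give p-values that measure the spread between pools. No comparison of the whole tissue can tell fewer cells of a type from less RNA per cell.

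*Ormia ochracea* finds singing male crickets by ear, and its larvae burrow into the body cavity, feed on the living host and kill it when they emerge. The fly is present on Kauai and absent from Mangaia, so the comparison asks whether crickets of a population that lives with the parasitoid differ from crickets of a population that does not, part of the way through an infestation. Insects can meet parasitoids with haemocytes, which encapsulate them, and with phenoloxidase, an enzyme of the melanin pathway. Phenoloxidase is stored as inactive prophenoloxidase and cut into its active form by serine proteases. Phenoloxidase-activating factors take part in this step. The study states that larvae of such flies keep moving inside the host and so escape full encapsulation. Toll-like receptors and peptidoglycan recognition proteins belong to the recognition and signalling arms of insect immunity, best known from *Drosophila*.

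Depth was similar in both groups. The pairs of reads assigned to genes numbered 6802550 to 7639961 in Mangaia pools (median 7319405) and from 6430286 to 7489113 in Kauai pools (median 6856609). Pairs with more than one alignment took 8.68% to 9.60% of a Mangaia library and 10.2% to 14.4% of a Kauai library, and these ranges did not overlap (difference 2.88 percentage points, two-sided exact permutation test, p = 0.1, adjusted p = 0.167 over 5 mapping shares). With 3 pools against 3 the smallest p such a test can give is 0.1. Pairs in more than one gene took 3.94% to 4.21% in Mangaia and 3.41% to 3.58% in Kauai, and pairs in no gene 6.18% to 6.64% and 5.63% to 6.10%, again with no overlap (exact permutation tests, p = 0.1, adjusted p = 0.167 each), so 3 of the 5 shares separated the groups. The part of these mapping differences in the results below was not tested. Over all genes, the root mean square log2 distance between a Mangaia and a Kauai pool was 0.756 to 0.973 (mean 0.868, 9 pairs), against 0.780 to 1.01 among the Kauai pools (mean 0.872, 3 pairs) and 0.629 to 0.764 among the Mangaia pools (mean 0.719, 3 pairs). A Kauai pool thus stood about as far from another Kauai pool as from a Mangaia pool.

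Few genes were differentially expressed (DE) between the populations at day 4, and 32 of the 36 were higher in Kauai. Of 23748 genes tested, 36 (0.152%) were DE at an FDR under 0.05, 32 higher in Kauai (0.135% of genes tested) and 4 higher in Mangaia (0.0168%). In all 36 genes the 3 Kauai pools and the 3 Mangaia pools did not overlap, which held for 16.3% of all genes tested (8.69% with Kauai higher and 7.57% with Mangaia higher). More genes were also higher in Kauai without adjustment, where 2339 genes (9.85%) had a p under 0.05, 1596 of them higher in Kauai (6.72%) and 743 higher in Mangaia (3.13%), although the median log2 difference over all genes was -0.01. Differences are given as log2 of Kauai over Mangaia from edgeR's quasi-likelihood test with Benjamini-Hochberg adjustment, and levels as CPM, read pairs scaled by library size and TMM factor. The unadjusted split was 1431 higher and 901 lower with RLE size factors, 1397 and 906 with library size alone, and 1290 and 1026 with only the 6 libraries compared in the fit. The 36 genes lie close to the threshold. Their adjusted p-values ran from 0.0422 to 0.0497, and 0 genes were DE with RLE size factors, with library size alone, without the filter on low counts, with only the 6 libraries compared in the fit, and without any 1 of 14 of the 18 libraries. Left out in turn, the remaining libraries gave 224 genes without Kauai pool 3, 84 without Mangaia pool 3, 12 without Kauai pool 2 and 1 without control pool 2 of Kauai, while the likelihood ratio test of edgeR called 505 genes (382 higher and 123 lower in Kauai) and DESeq2 504 (391 higher and 113 lower).

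**Figure D1:**
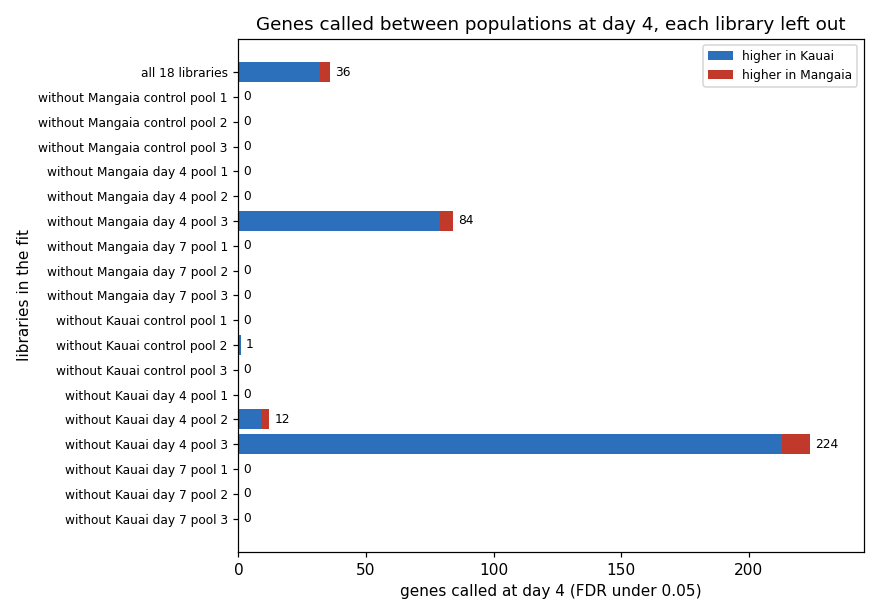
Number of genes DE between the populations at day 4 (x axis, FDR under 0.05) in the fit of all 18 libraries and in fits that leave out 1 library each (y axis), with blue for genes higher in Kauai and red for genes higher in Mangaia. The bars read 36 for all libraries, 224 without Kauai day 4 pool 3, 84 without Mangaia day 4 pool 3, 12 without Kauai day 4 pool 2, 1 without Kauai control pool 2 and 0 for the other libraries.

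The 32 genes higher in Kauai differed by log2 0.83 to 7.28 (median 1.59), and 26 of them by more than 2-fold. Of these genes, 22 had a mean of at least 10 CPM over the day 4 libraries, 10 of those at least 100 CPM, and 10 genes had a mean under 10 CPM. In the abundant genes the populations came close to each other. The lowest Kauai pool exceeded the highest Mangaia pool by a factor of 1.22 to 3.44 in the 22 genes with at least 10 CPM (median 1.58), and by a factor of 1.69 to 28.6 in the 10 rarer ones (median 2.38). In all but 1 of the 32 genes the sources used here give no name, so they are given by the identifiers of the gene models, MSTRG for models assembled from reads and TOG for models of the genome annotation, without coordinates.

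**Figure D2:**
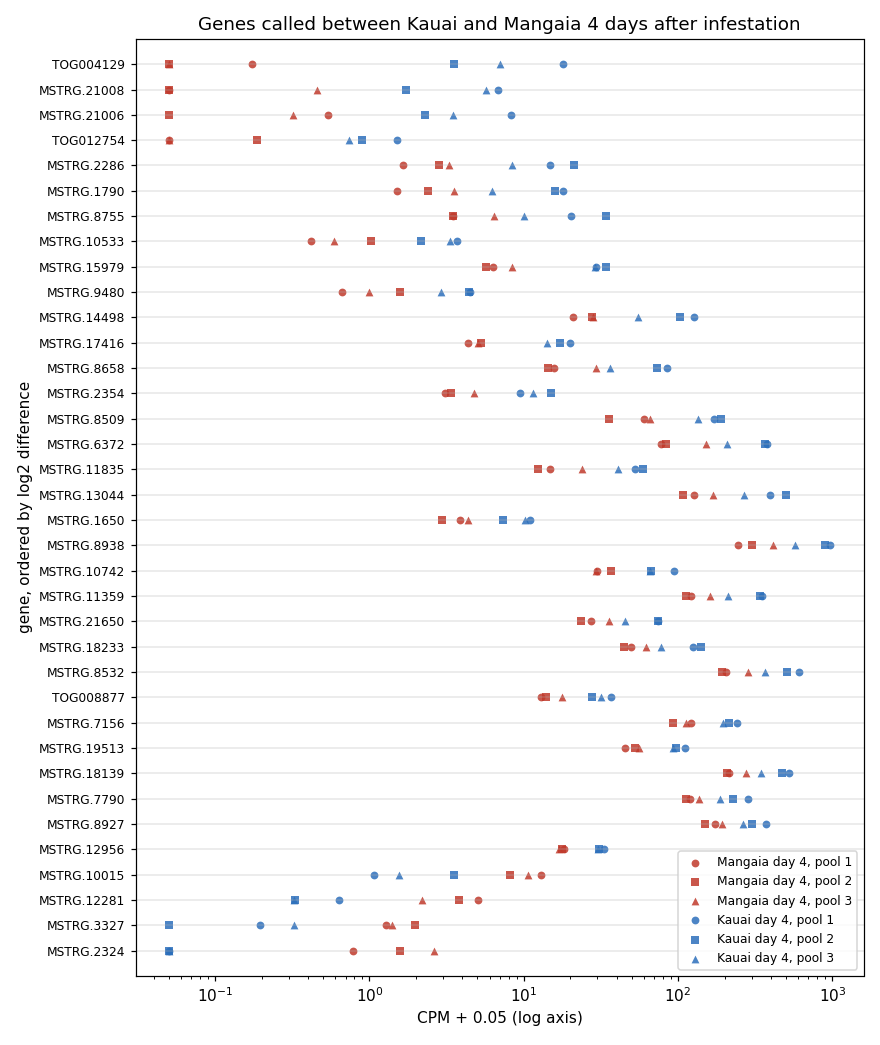
CPM + 0.05 on a log axis (x) of the 36 DE genes (y, ordered by log2 difference) in each of the 3 Mangaia pools (red) and 3 Kauai pools (blue) at day 4, with a symbol for each pool number. Red and blue do not overlap in any gene; among the 32 genes higher in Kauai, the triangle of Kauai pool 3 was the lowest blue symbol in 25 and the triangle of Mangaia pool 3 the highest red symbol in 23.

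All 22 DE genes with at least 10 CPM were higher in Kauai, and the 8 of them with the largest differences are described first. MSTRG.8755 was measured at 3.42, 3.45 and 6.33 CPM in Mangaia pools 1 to 3 and at 20.2, 34.0 and 9.99 CPM in Kauai pools 1 to 3. The Kauai pools were spread widely, and the lowest of them lay 1.58 times above the highest Mangaia pool. The difference was log2 2.28 (SE 0.42, adjusted p = 0.0474, quasi-likelihood test).

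The widest gap between the populations among the 22 genes was seen in MSTRG.15979, at 6.23, 5.66 and 8.35 CPM in Mangaia and 29.2, 34.3 and 28.7 CPM in Kauai. No pool of one population came within a factor of 3.44 of the other, and the difference was log2 2.18 (SE 0.38, adjusted p = 0.0422). Controls were closer to each other, at 18.7 ± 4.58 CPM in Mangaia and 15.6 ± 4.86 CPM in Kauai (SD, n = 3 pools each, log2 -0.26, adjusted p = 0.769, quasi-likelihood test).

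In MSTRG.14498 the Mangaia pools read 20.7, 27.6 and 27.9 CPM and the Kauai pools 127, 103 and 55.3 CPM (log2 1.90, SE 0.33, adjusted p = 0.0422). Here too Kauai pool 3 lay between the other Kauai pools and the Mangaia pools. MSTRG.17416 had 4.28, 5.25 and 4.99 CPM in Mangaia and 19.8, 17.2 and 14.1 CPM in Kauai, with little spread within either group (log2 1.81, SE 0.30, adjusted p = 0.0422). Its mean in Mangaia at day 4, 4.84 ± 0.50 CPM, was far from the 16.1 ± 2.71 CPM of Mangaia controls, while Kauai had 17.0 ± 2.86 CPM at day 4 and 17.3 ± 6.19 CPM in controls (SD, n = 3 pools).

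MSTRG.8658 was lower in Mangaia, at 15.8, 14.2 and 29.5 CPM, than in Kauai, at 84.5, 73.2 and 36.1 CPM (log2 1.70, SE 0.31, adjusted p = 0.0422). The third pools of the populations were close to each other, 1.22 times apart, the smallest gap among the 32 genes. MSTRG.8509 had 59.8, 35.9 and 65.8 CPM in Mangaia and 171, 191 and 134 CPM in Kauai (log2 1.62, SE 0.27, adjusted p = 0.0422). Its mean in Kauai at day 4, 165 ± 28.7 CPM, was under the 214 ± 29.0 CPM of Kauai controls, and its mean in Mangaia, 53.8 ± 15.8 CPM, under the 143 ± 17.1 CPM of Mangaia controls (SD, n = 3 pools).

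MSTRG.6372, the most abundant of the 8, had 77.8, 84.0 and 151 CPM in Mangaia and 375, 366 and 207 CPM in Kauai (log2 1.60, SE 0.28, adjusted p = 0.0422). MSTRG.11835 had 14.8, 12.3 and 23.9 CPM in Mangaia and 52.5, 59.2 and 40.8 CPM in Kauai (log2 1.58, SE 0.28, adjusted p = 0.0422). In both, Mangaia pool 3 was the highest of its group and Kauai pool 3 the lowest. The other 14 genes with at least 10 CPM differed by log2 0.83 to 1.53 (SE 0.14 to 0.25), and the most abundant of them, MSTRG.8938, had 243, 300 and 413 CPM in Mangaia and 971, 898 and 576 CPM in Kauai (log2 1.36, SE 0.25, adjusted p = 0.0474).

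**Figure D3:**
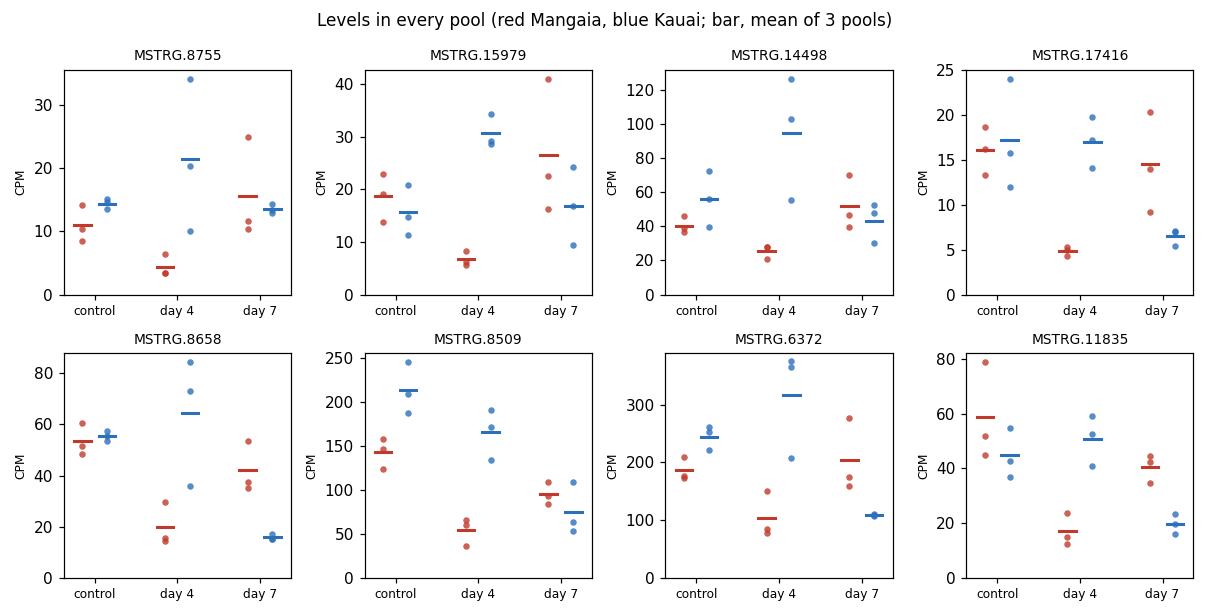
CPM (y axis, from 0) of the 8 genes with the largest differences among those with at least 10 CPM, in controls, at day 4 and at day 7 (x axis), in Mangaia (red) and Kauai (blue) pools, with bars for the mean of 3 pools. Mangaia means dip at day 4 in each panel, for example to 6.75 CPM in MSTRG.15979 against 18.7 CPM in controls and 26.6 CPM at day 7.

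In uninfested crickets the differences in these genes were mostly small and more often toward Kauai. Of the 32 genes, 0 were DE between uninfested Kauai and Mangaia, where 10 genes were DE (0.0421% of genes tested, 3 higher in Kauai, 0.0126%, and 7 lower, 0.0295%, quasi-likelihood test) and 3539 genes passed an unadjusted p under 0.05 (14.9%). The log2 difference in controls was above 0 in 24 of the 32 genes and below 0 in 8, with a median of 0.18 and 23 of the 32 within 0.50 of 0 (48.9% of all genes were above 0). All Kauai controls lay above all Mangaia controls in 10 of the 32 genes (31.2%, against 13.5% of all genes). The share of all genes within 0.50 of 0 in controls was not counted. Smaller differences in controls are favoured by the choice of the genes at day 4. Controls differed by more than 2-fold in 4 of the 32, in 3 toward Kauai and in TOG012754 toward Mangaia, and these are described further on.

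Mangaia crickets at day 4 had low levels of these genes beside their own controls. The Mangaia mean at day 4 was below the mean of Mangaia controls in 32 of 32 genes, with a median log2 ratio of -0.74 (means plus 0.5 CPM), and all 3 Mangaia day 4 pools lay below all 3 Mangaia controls in 27 (12.4% of all genes). Against Kauai controls the Kauai mean at day 4 was higher in 25 genes and lower in 7, with a median log2 ratio of 0.34. Because a gene is DE at day 4 partly for a low value in the same Mangaia pools, these counts describe the genes and do not test them.

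At day 7 the 32 genes, which had been chosen as higher in Kauai at day 4, did not share 1 direction. The Mangaia mean at day 7 was above that at day 4 in 32 of 32 genes (53.6% of all genes), and the Kauai mean was below that at day 4 in 26 (48.1% of all genes), counts that the choice of the genes by the day 4 pools also favours. The log2 difference was then below 0 in 20 genes and above 0 in 12 (median -0.31, while 52.2% of all genes were above 0), and all Mangaia pools lay above all Kauai pools in 14 of the 32 (43.8%, against 11.8% of all genes). In 7 of the 32 (21.9%, against 15% of all genes) all Kauai pools still lay above all Mangaia pools, and in 11 the groups overlapped. MSTRG.8658 went furthest below 0, from log2 1.70 at day 4 to -1.40 at day 7, with 42.1 ± 9.98 CPM in Mangaia and 15.9 ± 1.04 CPM in Kauai (SD, n = 3 pools). The change from day 4 to day 7 in the difference between populations was not tested.

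**Figure D4:**
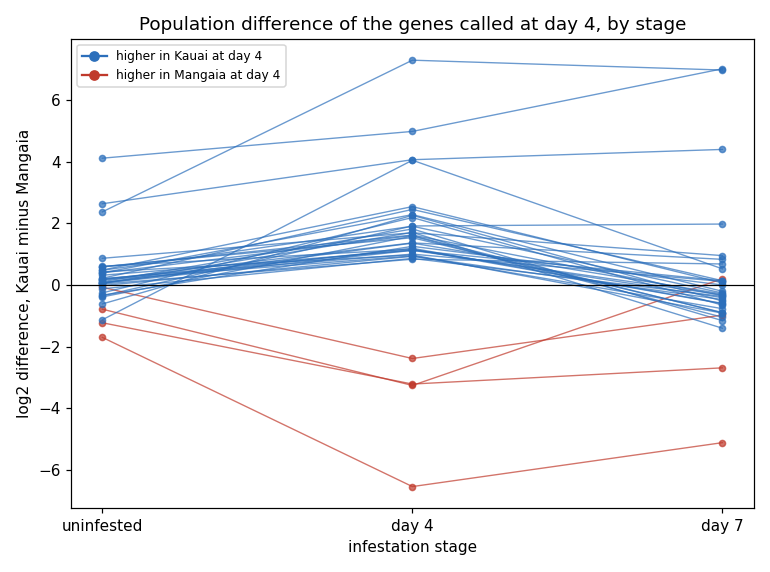
Log2 difference, Kauai minus Mangaia (y axis), of each of the 36 genes DE at day 4 in uninfested crickets, at day 4 and at day 7 (x axis), with blue lines for the 32 genes higher in Kauai at day 4 and red lines for the 4 higher in Mangaia. Most blue lines start near 0 (median 0.18), peak at day 4 (median 1.59) and end slightly below 0 (median -0.31), and 3 blue lines stay above 2 at every stage. The genes were chosen by their day 4 difference, which favours a peak at that stage.

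When the day 4 difference was tested against the difference in controls (an interaction term), 0 genes passed the FDR threshold with edgeR's quasi-likelihood test (smallest adjusted p = 0.278), 2320 passed an unadjusted p under 0.05 (9.77%), the likelihood ratio test called 113 and DESeq2 called 91. Among the 36 DE genes, 32 had an interaction with an unadjusted p under 0.05. They were partly chosen by it, since both contrasts use the day 4 pools. The smallest such values among DE genes with at least 10 CPM belonged to MSTRG.10742, MSTRG.11835 and MSTRG.15979. MSTRG.10742 had 29.6, 36.5 and 29.4 CPM in Mangaia and 94.5, 66.5 and 66.2 CPM in Kauai at day 4 (log2 1.25, SE 0.21, adjusted p = 0.0422), and in controls 102 ± 9.47 CPM in Mangaia and 80.9 ± 17.5 CPM in Kauai (SD, n = 3 pools). Its interaction was log2 1.59 (unadjusted p = 5.47e-05, adjusted p = 0.278, quasi-likelihood test). The interaction was 1.97 in MSTRG.11835 and 2.44 in MSTRG.15979 on the log2 scale.

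The 22 genes with at least 10 CPM also varied together between pools of 1 group. Over the 18 libraries, with the group means taken out, the median correlation between a pair of them was 0.48, against 0.07 over pairs of all 8423 genes at that level, and 47.6% of pairs were over 0.5, against 13.1%. All genes share the depth and the pooling of these libraries, so the values are a description. Kauai pool 3 was the lowest Kauai pool in 25 of the 32 genes (34.3% of all genes) and Mangaia pool 3 the highest Mangaia pool in 23 (30.7%).

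Of the 10 genes with a mean under 10 CPM, 7 had a log2 difference above 0 in controls, at day 4 and at day 7, and in 3 of these it was over 1 at each stage. All Kauai pools lay above all Mangaia pools at each stage in those 3 and in MSTRG.2354 (log2 0.86, 1.69 and 0.95). At day 4 this held in all 10 genes, which were chosen by the day 4 pools. Over all genes it held for 13.5% in controls, 8.69% at day 4 and 15% at day 7. The share of all genes with this order at every stage was not counted. MSTRG.21008 had 0, 0 and 0.404 CPM in Mangaia pools and 6.75, 1.68 and 5.61 CPM in Kauai pools at day 4 (log2 4.98, SE 0.86, adjusted p = 0.0422, quasi-likelihood test), and a difference of log2 4.11 in controls and 7.01 at day 7. Its mean in Kauai was 6.76 ± 3.19 CPM in controls, 4.68 ± 2.66 CPM at day 4 and 25.0 ± 11.5 CPM at day 7 (SD, n = 3 pools).

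MSTRG.21006, whose identifier is near to it in number, had 0.489, 0 and 0.270 CPM in Mangaia and 8.22, 2.24 and 3.42 CPM in Kauai (log2 4.06, SE 0.73, adjusted p = 0.0422), with log2 2.63 in controls and 4.39 at day 7. TOG004129 gave the largest difference of all DE genes. It had 0.122, 0 and 0 CPM in Mangaia and 18.04, 3.498 and 6.979 CPM in Kauai (log2 7.28, SE 1.09, adjusted p = 0.0422), and was at 1.27 ± 0.22 CPM in Kauai controls and 7.69 ± 3.93 CPM in Kauai at day 7 (SD, n = 3 pools). In these genes the size of the fold depends on very few Mangaia reads.

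TOG012754 differed from them in its controls. It had 0, 0.138 and 0 CPM in Mangaia and 1.47, 0.840 and 0.684 CPM in Kauai at day 4 (log2 4.04, SE 0.71, adjusted p = 0.0422), but 0.827 ± 0.22 CPM in Mangaia controls and 0.371 ± 0.09 CPM in Kauai controls (SD, n = 3 pools).

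Only 4 genes were higher in Mangaia, all of them rare, and they are named here although chosen after their values were seen. MSTRG.10015 was the most abundant, at 12.95, 8.147 and 10.64 CPM in Mangaia and 1.027, 3.498 and 1.505 CPM in Kauai (log2 -2.38, SE 0.41, adjusted p = 0.0422, quasi-likelihood test). It stood high in Mangaia at day 4 alone, at 10.6 ± 2.40 CPM, against 0.562 ± 0.15 CPM in Mangaia controls and 1.68 ± 0.89 CPM at day 7 (SD, n = 3 pools). Kauai means were 0.532 ± 0.11 CPM in controls, 2.01 ± 1.31 CPM at day 4 and 0.855 ± 0.23 CPM at day 7, so they too were highest at day 4.

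MSTRG.3327 had 1.22, 1.93 and 1.35 CPM in Mangaia and 0.147, 0 and 0.274 CPM in Kauai at day 4 (log2 -3.26, SE 0.56, adjusted p = 0.0422). At day 7 it was at 2.65 ± 0.34 CPM in Mangaia and 3.05 ± 0.59 CPM in Kauai (SD, n = 3 pools), with a log2 difference of 0.20. MSTRG.12281 had 5.01, 3.73 and 2.16 CPM in Mangaia and 0.587, 0.280 and 0.274 CPM in Kauai (log2 -3.21, SE 0.52, adjusted p = 0.0422), and at day 7 was still at 3.86 ± 2.27 CPM against 0.582 ± 0.07 CPM. MSTRG.2324 had no read in any Kauai pool at day 4 and 6, 11 and 19 reads in the Mangaia pools (adjusted p = 0.0497, quasi-likelihood test). It was at least 11.4-fold higher in Mangaia when the Kauai group is set to a floor of 3 reads over its libraries. At day 7 its log2 difference was -5.11. In controls the log2 difference was -1.70 in MSTRG.2324, -1.23 in MSTRG.12281, -0.79 in MSTRG.3327 and -0.08 in MSTRG.10015. All Mangaia controls lay above all Kauai controls in 2 of the 4 genes (50%, against 13.2% of all genes).

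Apart from the DE genes, 1 gene had no read in any Mangaia pool at day 4 and at least 10 reads in each Kauai pool, and 1 gene showed the reverse. MSTRG.575 had 448, 943 and 945 reads in the Kauai pools, which is 65.7, 132 and 129 CPM, and 0 in the Mangaia pools, at least 830-fold higher in Kauai by the floor of 3 reads over the group. It was likewise at 0 in every Mangaia control and at 0 in 1 of the 3 Kauai controls, with 87.2 and 110 CPM in the other Kauai controls, and had 40 reads over the Mangaia libraries at day 7. Its adjusted p was 0.0639, so the gene was not DE with the quasi-likelihood test, but it was with the likelihood ratio test (adjusted p = 1.84e-05) and with DESeq2 (1.84e-05), and not with limma voom (0.459). MSTRG.22049 had 11, 19 and 22 reads in the Mangaia pools and 0 in every Kauai library of all stages (at least 16.4-fold higher in Mangaia at day 4, adjusted p = 0.0763). It was DE with the likelihood ratio test (adjusted p = 0.000109), DESeq2 (0.00173) and limma voom (0.0469). Mangaia controls had 97 reads of it.

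The 10 genes with the highest mean CPM at day 4, a ranking that is not per length, included 0 DE genes. As 0.152% of all genes tested were DE, a count over 10 genes says little. MSTRG.17113 took 25680, 24600 and 28380 CPM in Mangaia and 36090, 54460 and 36050 CPM in Kauai, and MSTRG.20702 took 6678, 6680 and 7723 CPM in Mangaia and 9193, 13970 and 9386 CPM in Kauai. The groups did not overlap in either gene, as in 16.3% of all genes tested. Their adjusted p-values were 0.232 and 0.304 (log2 0.69 and 0.63, quasi-likelihood test). MSTRG.3000 showed how far single pools could stand apart, with 8954, 37330 and 8480 CPM in Mangaia and 11700, 11150 and 16310 CPM in Kauai (log2 -0.48, SE 0.57). The log2 differences of the other 7 ran from -0.63 in MSTRG.4435 to 0.65 in MSTRG.9788.

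Of 53 genes of the study's immune list, which is not used here in full, 1 was DE between the populations at day 4 (1.89%, against 0.152% of all genes tested), and it was higher in Kauai. The study chose this list on these samples, and each name comes from a protein match in another species, so the count is no independent evidence of direction. The log2 difference was above 0 in 27 genes and below 0 in 26 (median 0.05, against -0.01 over all genes), and the groups did not overlap in 12 (22.6%, against 16.3%), 6 in each direction. Without adjustment, 5 of the 53 genes were higher and 4 lower in Kauai at a p under 0.05, against 6.72% and 3.13% of all genes tested.

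The DE gene was MSTRG.9480, matched to Toll-like receptor 13, in mice a receptor for bacterial RNA. It was rare, at 0.611, 1.52 and 0.943 CPM in Mangaia and 4.40, 4.34 and 2.87 CPM in Kauai (log2 1.91, SE 0.32, adjusted p = 0.0422, quasi-likelihood test). All Kauai pools lay above all Mangaia pools. Controls were at 1.76 ± 0.20 CPM in Mangaia and 1.38 ± 0.27 CPM in Kauai, and at day 7 Mangaia had 1.24 ± 0.13 CPM and Kauai 4.91 ± 0.83 CPM (SD, n = 3 pools). Of the 10 Toll-like receptors and relatives, 7 were above 0 and 3 below (median log2 0.50), and the remaining 9 were not DE. A second gene matched to toll-like receptor 13, TOG006794, had a log2 difference of 1.56 with an SE of 0.77 (adjusted p = 0.550). It had only 0, 2 and 1 reads in Mangaia and 4, 3 and 2 in Kauai, and its groups overlapped. The groups did not overlap in 3 of the 10 genes (30%, against 16.3% of all genes). Kauai was higher in 1 of them, MSTRG.9480. Mangaia was higher in 2, MSTRG.5414 (log2 -0.67) and MSTRG.872 (log2 -0.70).

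Of the 7 phenoloxidases, 0 were DE. Their log2 differences ran from -1.28 to -0.15 (median -0.44), all below 0, as were 50.7% of all genes, and several were within 1 or 2 SE of 0. The median was -0.68 in controls. The largest was MSTRG.7273, matched to phenoloxidase 2-like, at 366, 981 and 938 CPM in Mangaia and 304, 334 and 304 CPM in Kauai (log2 -1.28, SE 0.38, adjusted p = 0.164, quasi-likelihood test). Its groups did not overlap, but Mangaia pool 1 lay near the Kauai pools. Controls had 69.7 ± 21.2 CPM in Mangaia and 72.4 ± 5.62 CPM in Kauai, and by day 7 the populations were at 1263 ± 352 CPM and 1211 ± 540 CPM (SD, n = 3 pools). With DESeq2 this gene was DE at day 4 (log2 -1.32, adjusted p = 0.0451).

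Prophenoloxidase genes also serve as the markers of haemocytes that the names allow. The 4 of them, MSTRG.17307, MSTRG.10136, MSTRG.10135 and MSTRG.10137, were below 0 with 0 DE (median log2 -0.34), and none was at 0 CPM. Their summed level was 155 to 312 CPM in Mangaia and 142 to 240 CPM in Kauai at day 4, against 91.4 to 117 CPM and 63.7 to 69.4 CPM in controls. The part of haemocyte number in the immune genes was not tested. No names for markers of fat body, muscle or testis were used here, so the labelled tissue was not checked beyond these genes.

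Both genes matched to phenoloxidase-activating factor 2 lay on the other side of 0. MSTRG.6730 had 7.70, 9.53 and 10.6 CPM in Mangaia and 18.8, 18.5 and 14.0 CPM in Kauai (log2 0.88, SE 0.25, adjusted p = 0.149, quasi-likelihood test), while MSTRG.18615 differed by log2 0.12 (SE 0.19, adjusted p = 0.954). All Kauai pools lay above all Mangaia pools in both genes, as in 8.69% of all genes tested. In MSTRG.18615 the nearest pools were almost level, at 60.8 CPM in Mangaia pool 3 and 61.3 CPM in Kauai pool 3.

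Among the 3 peptidoglycan recognition proteins, MSTRG.9040, matched to type SC2, had 187, 103 and 89.2 CPM in Mangaia and 83.2, 69.7 and 49.4 CPM in Kauai (log2 -0.91, SE 0.42, adjusted p = 0.491). In *Drosophila* proteins of this name degrade peptidoglycan and dampen signalling. The other 2 differed by log2 0.05 and 0.31 and were not DE.

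Signalling genes were above 0 in 6 of 7, with 0 DE. MSTRG.12613, matched to SARM1, which in mammals is a regulator of Toll-like receptor signalling and of axon loss, had 34.0, 26.4 and 28.3 CPM in Mangaia and 49.3, 31.6 and 63.8 CPM in Kauai (log2 0.71, SE 0.31, adjusted p = 0.455). Its groups overlapped. The match to STING, MSTRG.18304, was nearly level at log2 0.06 (SE 0.28).

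In the remaining families 0 of 24 genes were DE. TOG018967, matched to the transcription factor Lola, had 0.733, 0.414 and 0.808 CPM in Mangaia and 1.32, 1.26 and 2.33 CPM in Kauai (log2 1.302, SE 0.44, adjusted p = 0.244), and a difference of log2 1.42 in controls. It had only 3 to 17 reads in a day 4 pool. The other gene matched to Lola, MSTRG.2317, was more abundant and went the other way (log2 -0.57, SE 0.34, adjusted p = 0.69, quasi-likelihood test). MSTRG.23640, matched to the ryanodine receptor, a calcium channel of muscle, had 4.89, 3.45 and 10.2 CPM in Mangaia and 13.5, 12.5 and 11.6 CPM in Kauai (log2 1.01, SE 0.39, adjusted p = 0.349). The hypothetical proteins MSTRG.13096 and MSTRG.13095 lay on the Mangaia side. MSTRG.13095 had 6.97, 10.6 and 21.4 CPM in Mangaia and 5.28, 4.34 and 5.34 CPM in Kauai (log2 -1.38, SE 0.42, adjusted p = 0.180), and MSTRG.13096 had a log2 difference of -2.37 (SE 0.67, adjusted p = 0.139) with overlapping groups. MSTRG.13096 was DE with the likelihood ratio test (adjusted p = 0.0296) and DESeq2 (0.0249).

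**Figure D5:**
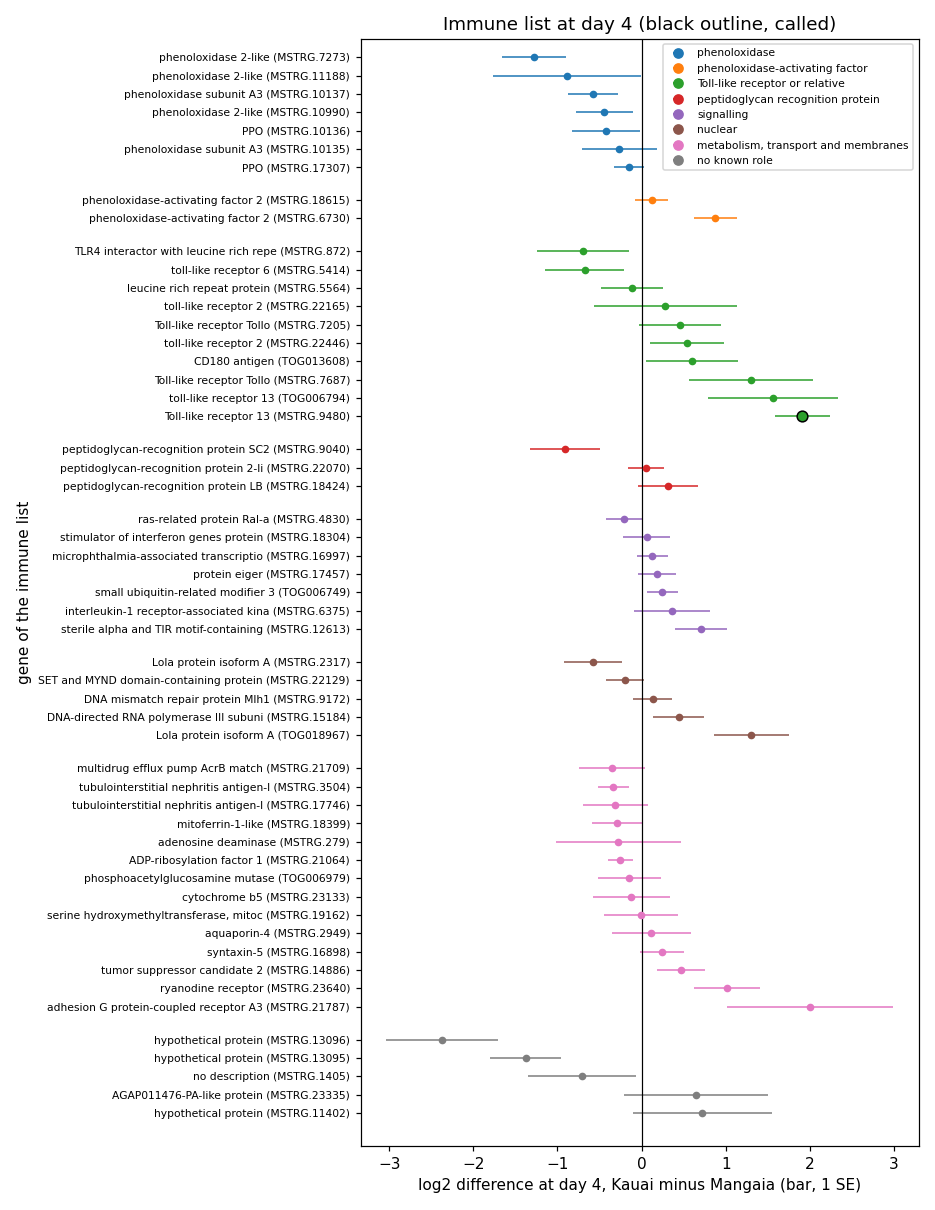
Log2 difference at day 4, Kauai minus Mangaia (x axis, bars of 1 SE), of the 53 immune genes (y axis) by family. MSTRG.9480 at 1.91, outlined in black, is the only DE gene, and the 7 phenoloxidases all lie left of 0, down to -1.28.

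The 4713 genes with 0 reads in all 6 control libraries together held 0.00296% to 0.00677% of the reads in genes of a day 4 library. Reads of larvae in genes that are also read in controls cannot be seen this way, and the part of larval RNA in the results was not tested. The median SE of a log2 difference at day 4 was 0.45 over all genes, so a 2-fold difference came to little more than 2 SE in a typical gene at this number of pools.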

How the data were processed

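The authors trimmed reads with Trimmomatic 0.33 and aligned them with STAR 2.5.3a against the *T. oceanicus* genome, with gene models merged by StringTie 1.3.4d, and deposited raw counts of uniquely mapped read pairs for 32729 genes per library. Libraries were made from poly(A) RNA with a kit that does not mark strand, so the unstranded counts were used, and overlapping genes or near-identical copies, whose pairs are left out as ambiguous or multi-mapped, are uncertain. The rows for unmapped, multi-mapped, featureless (5.63% to 6.64% of pairs at day 4) and ambiguous pairs stayed out of library sizes and tests. The deposited files hold no columns of other samples.

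The filter kept 23748 genes that reached 1 CPM in 2 or more libraries. All 18 libraries entered one model of 6 groups (12 residual degrees of freedom) in edgeR 4.0.16 under R 4.3.3, with TMM factors and the quasi-likelihood test. P-values were adjusted by Benjamini-Hochberg over all genes tested, with an FDR threshold of 0.05, for Kauai against Mangaia at day 4, in controls, and for the difference between these (interaction). Standard errors are the absolute log2 difference divided by the square root of F. Day 7 differences are coefficients of the same model, added as a description with no test. Mapping shares were compared by exact permutation.

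Named genes are the 8 DE genes with the largest difference in each direction with a mean of at least 10 CPM and groups that do not overlap (none was higher in Mangaia), genes at 0 in one population with at least 10 reads in each library of the other, the 10 most abundant genes, the 3 DE genes with at least 10 CPM that had the smallest interaction p-values, and immune genes at an unadjusted p under 0.05. The comparison, the lists and these rules were chosen with earlier results of these data known. The tests were run on simulated data beforehand. Other tests were edgeR's likelihood ratio test, voom of limma 3.58.1 and DESeq2 1.42.0. Other settings were scaling by RLE size factors or by library size alone, filterByExpr or no filter on low counts, a fit without the other groups, a block for the replicate number, shares of mapped pairs, and leaving out each library. Same-group pools differed beyond counting noise, so none was counted as a duplicate. Neither sequences nor positions of genes were used here.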

Additional observations from a re-analysis of the deposited data

How the results depend on the processing

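The count of DE genes did not hold over 27 alternatives. The direction of the difference was the same in all of the 36 DE genes that could be fitted (35 of them with filterByExpr and with only the libraries compared). It could hardly have changed, since this contrast chose the genes and their day 4 groups do not overlap, so it is no further evidence. At day 4, where 36 genes were DE, the likelihood ratio test called 505, DESeq2 504, limma voom 54 and filterByExpr 20, while 0 were called without the filter, with RLE size factors, with library size alone and in a fit of only the libraries compared. The adjusted p-values of the 36 genes were 0.0511 to 0.0612 without the filter, 0.0689 to 0.0866 with RLE size factors and 0.0954 to 0.111 with library size alone. Of the 36 genes, 36 were DE with the likelihood ratio test, 31 with limma voom, 20 with filterByExpr and 34 with DESeq2, which gave no adjusted p for the other 2. Leaving out 1 library gave 0 to 224 genes, with 36 of the 36 kept without Kauai day 4 pool 3, 29 without Mangaia day 4 pool 3, 5 without Kauai day 4 pool 2 and 0 without any other; the cause was not tested. RLE size factors and library size alone shifted the median log2 difference of all genes to -0.04.

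In controls, where 10 genes differed between the populations, the likelihood ratio test called 513, DESeq2 656, limma voom 15, library size alone 374, only the libraries compared 415, and leaving out 1 library 0 to 20. The interaction, with 0 genes, had 113 with the likelihood ratio test, 91 with DESeq2 and 0 under the other alternatives. The immune list, with 1 DE gene, had 2 with the likelihood ratio test (adding MSTRG.13096) and 3 with DESeq2 (adding MSTRG.13096 and MSTRG.7273). It had 0 under the same settings that called 0 genes at day 4, and 0 to 1 when 1 library was left out.

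Replicate numbers did not pair the pools: the deviations of same-numbered day 4 pools from their group means correlated at 0.26, -0.04 and -0.28. With the replicate number as a block, 0 genes were DE at day 4, 3 in controls and 0 of the immune list.

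Among the named genes the log2 difference changed sign in 3 abundant ones that were not DE. MSTRG.8419 (log2 -0.03, and -0.381 to 0.147 when 1 library was left out) went to 0.0333 without Mangaia day 4 pool 1, 0.112 without Mangaia pool 3, 0.147 without Kauai pool 1 and 0.105 without Kauai pool 3. MSTRG.3000 (log2 -0.48, from -0.802 to 0.572) went to 0.572 without Mangaia pool 2, and MSTRG.22301 (log2 -0.17, from -0.680 to 0.111) to 0.111 without Kauai pool 1.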
